A study of Mus musculus with 6 samples.

Results

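The regions described here are stretches of open chromatin inside introns that lie close to a transcription start. They were measured by Omni-ATAC-seq, an assay that inserts sequencing adapters into unpacked DNA with a transposase enzyme, in primary lung fibroblasts of Col1a1-GFP transgenic mice. A region was taken when both annotation columns of the deposited tables placed it in an intron, which leaves out annotated repeats and CpG islands, and when the nearest start was at most 10 kb away. The table of plastic against 32 kPa held 4771 such regions among 64217, or 7.43%. The authors' list of regions higher on 32 kPa than on 0.2 kPa held 120 among 2121, or 5.66%, and their list of regions higher on plastic than on 0.2 kPa held 103 among 2114, or 4.87%.

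The cells were GFP-positive fibroblasts purified by flow sorting, so that cells expressing the Col1a1 reporter were studied. They were grown for 8 days in 10% serum on 32 kPa silicone (PDMS) or on tissue-culture plastic, and set against cells on soft 0.2 kPa PDMS. All 3 cultures carried the same collagen I coating, applied at 0.1 mg/mL, and were seeded at 5000 cells per cm2. Each culture had 2 libraries of 50000 cells, 6 in all. Values are the authors' mean level of a region in a culture, in log2 normalised reads, and a fold is the difference of a pair of these log2 levels. Because the deposited tables hold a single mean for each culture, neither library spread nor depth is known. No source used here says that the libraries came from separate animals, so the p-values of the authors cover only spread between libraries, which may be technical. "Listed" means present in an authors' list, where each region had a fold of at least 1 and a false discovery rate (FDR) of at most 0.05. The 2 lists share the 0.2 kPa libraries, so they are not independent of each other.

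Introns are transcribed and then spliced out, and their DNA can hold enhancers, which are stretches bound by transcription factors that raise transcription from a start nearby or far away. The first intron of a gene often begins close to its start and is a common home of such elements and of alternative promoters. In fibroblasts, enhancers of matrix and contractile genes are bound by AP-1, TEAD with its partners YAP and TAZ, RUNX and serum response factor. An open region is assigned here to the gene of its nearest start, which need not be the gene it acts on.

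The labels were checked against reference data and markers. Of the 4771 regions, 4746 (99.5%) lay within the span that RefSeq gives to the gene of the named intron. Promoter regions were found for 13 of 14 fibroblast marker genes. The highest promoter region of each had a median of 4.64 on 32 kPa, from 3.76 up to 8.82 at Vim. Promoter regions were also found for 2 of 11 epithelial, 2 of 11 endothelial, 1 of 10 leukocyte and 1 of 10 pericyte, smooth muscle and mesothelial markers. The highest of these were Myh11, a smooth muscle myosin, at 5.25 and the leukocyte marker Lyz2 at 5.01 on 32 kPa, both above the fibroblast median. Intronic regions near starts were assigned to Vim, Pdgfrb and S100a4 among the fibroblast markers, to Csf1r and Spi1 among the leukocyte markers, to Erg among the endothelial markers and to Cspg4 among the pericyte markers, and to none of the epithelial markers. No marker gene had a listed intronic region near its start. Among the marker promoters, those of Myh11 and Col1a1 had 1 region each listed as higher on plastic than on 0.2 kPa, and none was listed on 32 kPa. The part of other cell types in the levels was not tested.

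Sequence was available here where a region reached a RefSeq promoter window, which runs from 250 bases before a start to 50 after it (GRCm38.p6, the primary sequence of mm10). This applied to 57 of the 4771 regions (1.19%), to 0.401% of intronic regions beyond 10 kb, to 1.14% of intergenic regions within 10 kb and to 71% of promoter regions. Among the listed regions it applied to those of Dysf, Abca7 and Rnls. They are shown because they carry both a listed difference and a RefSeq start, although the intron named for the Abca7 region is in doubt. Each line gives the bases of the region that lie before the start, 5′ to 3′ on the strand of that start. Capitals mark matches to the motifs searched on both strands, which were AP-1 TGANTCA, TEAD GGAATG, RUNX TGTGGT, NFI TTGGCA, ZNF416 CTGGGCA and the CArG box of serum response factor. ZNF416, a zinc finger protein, is named in the title of the series.
Gm33024 start in the intron of Dysf, chr6:84010879-84010936, minus strand: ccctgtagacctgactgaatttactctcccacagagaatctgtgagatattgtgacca
Abca7 start, chr10:79996347-79996493, plus strand: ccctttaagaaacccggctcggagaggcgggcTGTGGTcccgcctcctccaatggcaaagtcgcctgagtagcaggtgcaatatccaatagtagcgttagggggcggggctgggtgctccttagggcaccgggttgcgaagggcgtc
Gm29998 start in the intron of Rnls, chr19:33391580-33391800, plus strand: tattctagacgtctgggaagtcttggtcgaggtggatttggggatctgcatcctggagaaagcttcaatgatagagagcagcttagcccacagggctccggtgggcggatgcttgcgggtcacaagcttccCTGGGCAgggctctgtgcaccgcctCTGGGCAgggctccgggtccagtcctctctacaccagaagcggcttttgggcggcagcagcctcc

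The Gm33024 stretch of 58 bases had 44.8% G and C and no match to the 6 motifs. The Abca7 stretch of 147 bases had 62.6% G and C and 1 RUNX match, a motif found in 8.24% of 32851 RefSeq windows of that length before a start. The Gm29998 stretch of 221 bases had 60.6% G and C and 2 ZNF416 matches, and 5.97% of windows of that length held at least 1. These matches describe the letters and do not show a bound factor. The Dysf region, in the gene of the membrane repair protein dysferlin, stood at 6.16 on 32 kPa against 5.0 on 0.2 kPa, and at 6.08 on plastic against 5.06 on 0.2 kPa. The Rnls region, in the gene of renalase, stood at 6.03 on plastic against 4.96 on 0.2 kPa. The Abca7 region, near the gene of a lipid transporter, stood at 5.41 on plastic against 4.25 on 0.2 kPa. Its intron is that of Bc1, which RefSeq places elsewhere, and the table of plastic against 32 kPa calls the same interval a promoter, 59 bases upstream of Abca7.

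Intronic regions near starts sat mostly on the downstream side of the start, which follows largely from the rule. An intron lies downstream of the start of its own transcript, and a limit of 10 kb favours first introns. The shares below therefore describe the selection and say nothing particular of open chromatin. Of the 4771, 4007 (84%) were downstream and 764 (16%) upstream, and 759 lay within 1 kb downstream. None lay within 1 kb upstream, a stretch the annotation calls promoter, and the closest region was 101 bases from its start. The intron was the first of its transcript at 2909 regions (61%), the second at 809 (17%) and a later one at 1053 (22.1%). It belonged to the nearest gene itself at 4041 regions (84.7%) and to another gene at 718 (15%). The nearest gene was protein-coding at 4131 regions (86.6%) and noncoding at 594 (12.5%). The regions were assigned to 3807 genes, of which 3088 had 1 region and 719 had 2 or more, and 6 regions had no gene name.

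**Figure D1:**
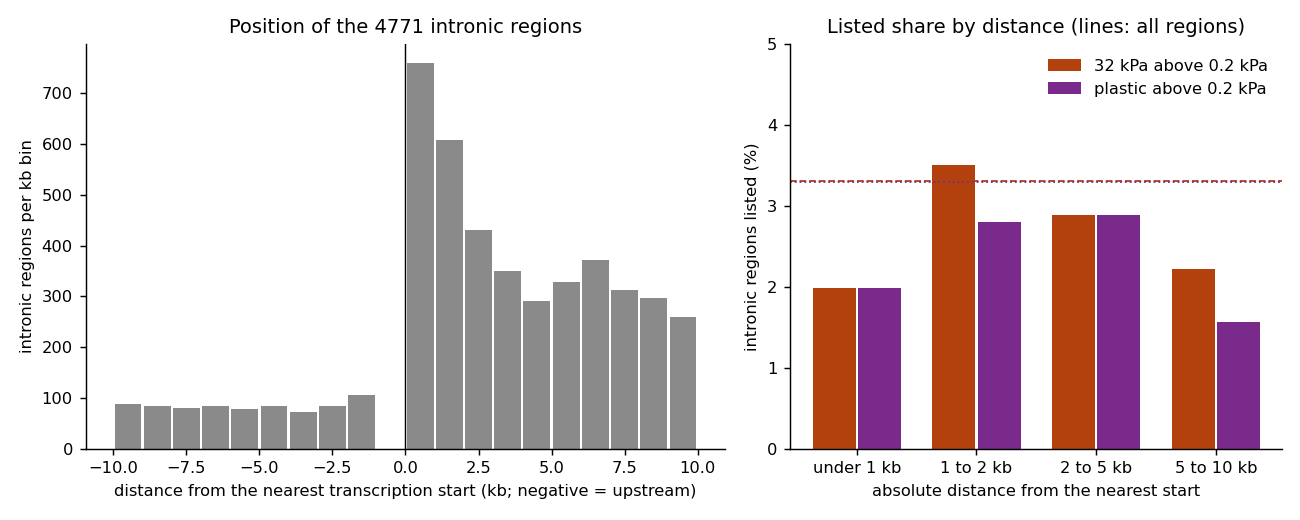
Left, number of intronic regions near starts in each 1 kb bin of signed distance from the nearest start. Right, share of them listed as higher on 32 kPa or on plastic than on 0.2 kPa by absolute distance, with dashed and dotted lines at the 3.31% and 3.3% of all regions; the bars lie between 1.56% and 3.5%.

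In level, these regions were near the middle of all open regions and well under promoters. Their median level was 4.21 on plastic and 4.13 on 32 kPa, against 4.24 and 4.17 for all 64217 regions on the same cultures. Promoter regions had medians of 5.27 on plastic and 5.28 on 32 kPa. Intronic regions beyond 10 kb had 4.06 and 3.99, and intergenic regions within 10 kb had 4.17 and 4.11. The quartiles of the intronic regions near starts were 3.67 and 4.85 on plastic and 3.58 and 4.82 on 32 kPa, so that the level varied far more among them than between these cultures. Their median width was 158 bp, against 177 bp for all regions and 255 bp for promoters. Levels are normalised reads of a whole region, and regions were not compared at equal width. The level changed little with position, with medians on 32 kPa of 4.10 within 1 kb, 4.24 from 1 to 2 kb, 4.23 from 2 to 5 kb and 4.02 from 5 to 10 kb.

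The 10 strongest of them on 32 kPa stood above the promoter median of 5.28 there. They were also wide, from 497 to 1027 bp against a median of 255 bp for promoters, and levels were not compared at equal width. Crlf2, the receptor chain for the cytokine TSLP, was highest, with 8.31 on plastic and 8.39 on 32 kPa over 1027 bp of its second intron. Clec11a, a secreted growth factor for bone-forming cells, followed with 8.18 on plastic and 8.22 on 32 kPa. The pseudogenes Pisd-ps2 and Pisd-ps1 came next at 8.08 and 8.02 on 32 kPa, and because they are copies of one gene, reads may be shared between them and their levels are uncertain. Phf19, a Polycomb-associated protein, had 8.00 on plastic and 7.92 on 32 kPa, and Pdcl, a phosducin-like protein that acts in G protein assembly, had 7.87 and 7.89. The Pdcl region overlapped the RefSeq promoter window of Pdcl itself by 76 bases. Cic, a transcriptional repressor downstream of growth factor signals, had 7.65 on plastic and 7.84 on 32 kPa. Nav2, Mrgprf and Peg3 had 7.75, 7.55 and 7.54 on 32 kPa. None of these 10 regions was listed, and each differed between plastic and 32 kPa by less than 0.2.

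The next question was which of these regions were more open on 32 kPa than on 0.2 kPa. Of the 4771, 122 overlapped a listed region, or 2.56%, against 3.31% of all regions. Listing was nearly confined to regions of high level, since the lowest level of a listed region on 32 kPa was 4.97. At or above it were 21.4% of the intronic regions near starts and 26.5% of all regions. Within that range 122 of 1023 were listed, or 11.9%, against 12.5% of all regions, so the share was close to the background. The 120 listed intronic regions had a median level of 5.74 on 32 kPa against 4.62 on 0.2 kPa, and a median fold of 1.16 in the authors' deposited table, a ratio of 2.24. The 2121 listed regions of every kind had a median fold of 1.12 there. Both medians are bounded below by the fold of 1 that the list requires.

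Lncenc1, a long noncoding RNA described in mouse embryonic stem cells, had the largest of these differences. The region, in its only intron, had 6.60 on 32 kPa against 4.81 on 0.2 kPa, a fold of 1.79 or a ratio of 3.46 with an FDR of 0.000232 in the authors' deposited table. Mdfic, a regulator of transcription factors that also binds Piezo mechanosensitive channels, had 5.32 on 32 kPa against 3.82 on 0.2 kPa in its second intron. A region near Mir684-1, in the sixth intron of the chromatin reader gene Yeats2, had 5.59 on 32 kPa against 4.10 on 0.2 kPa. Their folds in the authors' deposited table were 1.5 at an FDR of 0.0126 and 1.49 at an FDR of 0.00832. All 3 were at least 2.81 times as open on 32 kPa as on 0.2 kPa.

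Other large folds were at genes of different kinds. Car4, a membrane-bound carbonic anhydrase, had 5.08 on 32 kPa against 3.61 on 0.2 kPa, and Scel, a precursor of the cornified envelope of keratinocytes, had 5.85 against 4.39. Nfia, a transcription factor of the nuclear factor I family, had 5.39 on 32 kPa against 3.94 on 0.2 kPa, 2.4 kb upstream of a start within its first intron. Bcl3, an atypical member of the IkappaB family that acts in the nucleus, had 5.86 on 32 kPa against 4.48 on 0.2 kPa. The folds of these 4 regions ran between 1.38 and 1.47 in the authors' deposited table, with FDR values between 0.0067 and 0.0208. Ensa, an inhibitor of the phosphatase PP2A at mitosis, had 6.32 on 32 kPa against 4.97 on 0.2 kPa in its first intron, 320 bases from the start. The noncoding A930002C04Rik had 5.17 on 32 kPa against 3.72 on 0.2 kPa.

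The lowest FDR values belonged partly to stronger regions of smaller fold. Sin3a, the scaffold of a histone deacetylase corepressor, had 7.41 on 32 kPa against 6.16 on 0.2 kPa, with a fold of 1.25 and an FDR of 0.000495 in the authors' deposited table. Il1rl1, the receptor of interleukin 33, had 7.35 on 32 kPa against 6.24 on 0.2 kPa in its sixth intron, with a fold of 1.11 and an FDR of 0.00154 there. The noncoding 1700110C19Rik had 7.34 against 6.34. Of the 120 regions, 25 (20.8%) had an FDR of at most 0.01 in the authors' deposited table, against 33% of all 2121. Over the 4771 regions that was 0.524%, against 1.09% of all regions. A pair of listed regions was found at 3 genes. They were Angpt4, an angiopoietin, Tbc1d2b, an activator of Rab GTPases, and the pair nearest to Mir3075 in the second intron of Zmiz1, a coregulator of transcription factors.

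The same question was asked of plastic. Of the 4771 regions, 104 overlapped a listed region, or 2.18%, against 3.3% of all regions. The lowest level of a listed region on plastic was 4.94, and from there up 103 of 1075 were listed, or 9.58%, against 11.7% of all regions. The 103 listed regions had a median level of 5.69 on plastic against 4.52 on 0.2 kPa, and a median fold of 1.15 in the authors' deposited table, against 1.12 for all 2114. Of the 103, 25 (24.3%) had an FDR of at most 0.01 there, against 32.7% of the 2114, and over all 64217 regions the share with such a listing was 1.08%. Each of these shares lay below that of all regions, and none of the gaps was tested.

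Gm15694, in the first intron of the SUMO protease gene Senp5, had the largest difference. It stood at 5.10 on plastic against 3.25 on 0.2 kPa, a fold of 1.85 or a ratio of 3.61 with an FDR of 0.00521 in the authors' deposited table. Casp14, a caspase of keratinocyte differentiation, had 6.04 on plastic against 4.48 on 0.2 kPa, and Lncenc1 had 6.28 against 4.82, with folds of 1.56 and 1.46 in the same deposited table by the authors. Pkp2, a desmosome protein, had 5.16 on plastic against 3.76 on 0.2 kPa. Pxdn, a peroxidase that crosslinks collagen IV, had 5.80 on plastic against 4.45 on 0.2 kPa, in its first intron. All 5 were at least 2.55 times as open on plastic as on 0.2 kPa.

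Among the other large folds on plastic were Slc35b4, a nucleotide sugar transporter, with 5.33 on plastic against 3.92 on 0.2 kPa, and Gm31369, a noncoding gene, with 5.16 against 3.81. D630041G03Rik, in the intron before the last of Eps8l1, a relative of the actin regulator EPS8, had 6.55 on plastic against 5.16 on 0.2 kPa. The lowest FDR on plastic was at Sin3a, 0.000165 in the authors' deposited table, with 7.21 on plastic against 6.10 on 0.2 kPa. Ift43, a subunit of intraflagellar transport, had 7.03 on plastic against 6.03 on 0.2 kPa, with a fold of 1.01 and an FDR of 0.00125 in the authors' deposited table. A pair of listed regions was found at 3 genes here too: Tbc1d2b, the synaptic scaffold Dlg4, and Itgbl1, a secreted relative of integrin beta subunits. The Itgbl1 pair, in the first and second introns, had 5.37 and 5.40 on plastic against 4.21 and 4.25 on 0.2 kPa.

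**Figure D2:**
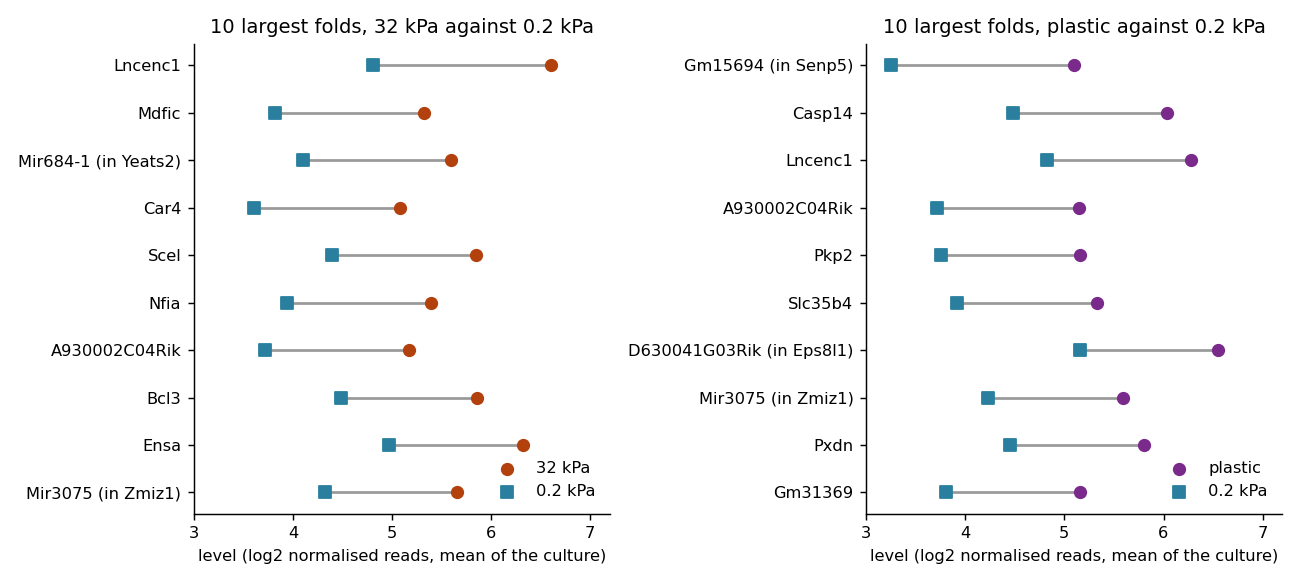
Levels of the 10 listed intronic regions with the largest fold in each comparison, in log2 normalised reads; circles mark 32 kPa (left) or plastic (right), squares 0.2 kPa, and a gene in brackets owns the intron. Lncenc1 at 6.60 against 4.81 leads on the left and Gm15694 at 5.10 against 3.25 on the right.

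Some regions stood in both lists, and their values are given side by side because the lists share the 0.2 kPa libraries. Lncenc1 and Sin3a are given above. Ddr1, a receptor tyrosine kinase for collagen, had 5.60 on 32 kPa against 4.25 on 0.2 kPa, and 5.45 on plastic against 4.21 on 0.2 kPa. Its folds were 1.34 and 1.24, with FDR values of 0.017 and 0.0267, in the authors' deposited tables. Scel had 5.70 on plastic against 4.4 on 0.2 kPa, and the region near Mir3075 had 5.59 against 4.23, beside 5.66 on 32 kPa against 4.32. Paqr8, a membrane progestin receptor, had 5.13 on 32 kPa against 3.87 on 0.2 kPa, and 5.19 on plastic against 3.88 on 0.2 kPa. In Tbc1d2b, whose first intron held both regions, the one 10 kb from the start had 5.90 on 32 kPa against 4.68 on 0.2 kPa and 6.03 on plastic against 4.72 on 0.2 kPa. Casp14, given above for plastic, had 5.57 on 32 kPa against 4.47 on 0.2 kPa. Its fold in the authors' deposited tables was 1.56 on plastic and 1.10 on 32 kPa, a gap that was not tested.

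The share that was listed varied with level. On 32 kPa, 1 of 3787 regions under a level of 5 was listed, against 6.8% from 5 to 5.5, 18.5% from 5.5 to 6, 15.5% from 6 to 6.5, 15.9% from 6.5 to 7 and 12.9% at 7 or more. In regions of every other kind the same bins had 6.9%, 14.2%, 15.9%, 19.1% and 21%. On plastic the intronic regions near starts had 7.64%, 13.6%, 14.2%, 10.7% and 6.45%, and the other regions 9.96%, 15.3%, 14.1%, 12.1% and 10.1%. The top bin held 31 intronic regions on each culture, with 4 and 2 listed, so its shares rest on few regions.

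**Figure D3:**
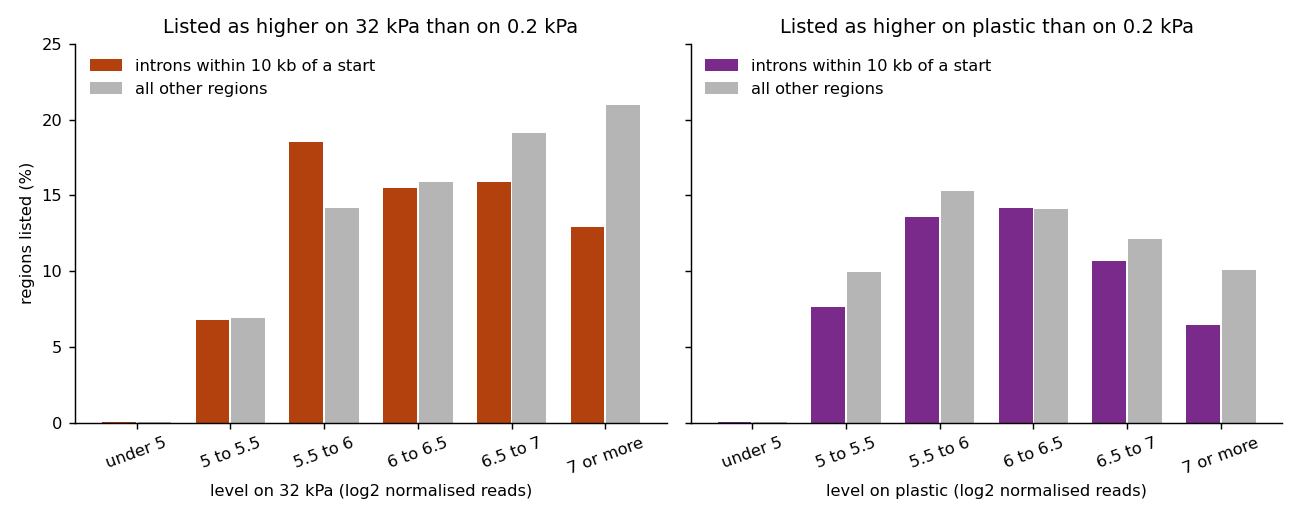
Share of regions listed, by level on the stiffer culture in log2 normalised reads, for intronic regions near starts (coloured) and all other regions (grey). Under a level of 5 almost nothing is listed; at 7 or more the coloured bars reach 12.9% on 32 kPa and 6.45% on plastic, over 31 regions each.

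The like kinds of region were compared at equal level. Before that, 2.4% of intronic regions beyond 10 kb, 2.81% of intergenic regions within 10 kb and 7.69% of promoters were listed on 32 kPa. With their levels weighted to those of the intronic regions near starts, these became 2.91%, 2.94% and 2.06%, beside 2.56% for the intronic regions near starts themselves. On plastic the shares were 2.63%, 2.25% and 6.56%, and at equal level 2.99%, 2.31% and 2.09%, beside 2.18%. All regions that are not intronic and near a start had 2.41% on 32 kPa and 2.57% on plastic at equal level. The order of the kinds thus changed once level was held equal, and none of these gaps was tested.

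By distance the listed share differed by more than 1.5 times between the lowest and the highest bin, which was not tested. On 32 kPa it was 1.98% within 1 kb of the start, 3.5% from 1 to 2 kb, 2.89% from 2 to 5 kb and 2.22% from 5 to 10 kb, and on plastic 1.98%, 2.8%, 2.89% and 1.56%. First introns had 2.51% listed on 32 kPa and 2.27% on plastic, second introns 2.97% and 2.47%, and later ones 2.37% and 1.71%. Upstream regions had 3.27% and 2.23%, against 2.42% and 2.17% downstream. Regions nearest a noncoding gene had 3.7% on 32 kPa and 2.02% on plastic, against 2.42% and 2.18% at protein-coding genes. Just inside the limit of 10 kb, from 9 to 10 kb, 1.72% of 348 regions were listed on 32 kPa and 2.3% on plastic, and just outside it, from 10 to 11 kb, 2.02% and 3.18% of 346.

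The genes of pathways tied to fibroblast activation were read from 11 lists, which hold 404 genes. Of these, 134 had an intronic region near a start and 6 had one listed on 32 kPa, or 4.48%, against 3.13% of all 3807 genes with such a region. On plastic 3 had one listed, or 2.24%, against 2.63% of all. Among genes with a region at or above the lowest listed level, it was 6 of 42 on 32 kPa, or 14.3%, against 12.9% of all such genes, and 3 of 51 on plastic, or 5.88%, against 10.2%. By the gene of the nearest start, the shares on 32 kPa were therefore near the background. In lists with a listed gene, 3 to 8 genes reached the lowest listed level on 32 kPa and 4 to 9 on plastic. The counts of single lists below are too small to set against these shares.

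Of the contractile genes, 20 of 42 had an intronic region near a start and only Flnc, the muscle filamin, had one listed, on 32 kPa. It stood at 5.69 on 32 kPa against 4.65 on 0.2 kPa. Pdlim7, a LIM protein of actin fibres, and Tpm4, a tropomyosin, had far stronger regions at 7.28 and 6.88 on 32 kPa, and neither was listed. Of the integrin and focal adhesion genes, 16 had such a region and Tns2, a tensin that links integrins to actin, had one listed, at 6.73 on 32 kPa against 5.71 on 0.2 kPa. Itga5, the fibronectin receptor subunit, had 6.54 on plastic and 6.41 on 32 kPa and was not listed.

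Of the transcription factors, 12 had a region and 2 had one listed. Nfia was listed on 32 kPa, as given above. Runx2, a regulator of bone and matrix genes, was listed on plastic, at 5.23 against 3.99 on 0.2 kPa, with a fold of 1.24 and an FDR of 0.031 in the authors' deposited table. On 32 kPa the same Runx2 region was not listed but had 5.06, near its level on plastic. Of the inflammatory genes, 10 had a region, 3 had one at or above the lowest listed level on 32 kPa, and 2 had one listed there. These were Il1rl1, given above, and Ptx3, a secreted pentraxin, whose region lies in the fourth intron of Veph1 and had 5.91 on 32 kPa against 4.86 on 0.2 kPa.

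Of the matrix proteases and inhibitors, 13 had a region and 2 had one listed. Adamts5, which cleaves aggrecan and versican, had 5.63 on 32 kPa against 4.47 on 0.2 kPa, and 5.69 on plastic against 4.51 on 0.2 kPa, in its first intron. The folds were 1.16 and 1.19 at FDR values of 0.0286 and 0.0157 in the authors' deposited tables. Mmp23, a membrane-linked metalloproteinase, had 5.85 on plastic against 4.82 on 0.2 kPa.

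No gene of the remaining lists had a listed region. That holds for 17 collagen and matrix genes, 17 genes of the YAP/TAZ pathway and 9 of the TGF-beta pathway with an intronic region near a start. It also holds for 5 genes of alveolar and lipid fibroblasts and 3 of the cell cycle with such a region. The last list mixes antifibrotic, prostaglandin, cyclic nucleotide and growth factor genes, of which 13 had such a region. Between 0 and 5 genes in each of these lists had a region at or above the lowest listed level on 32 kPa, and between 0 and 7 on plastic, so few could have been listed. Some of their regions were strong all the same. Vgll3, a cofactor of TEAD, had 6.85 on plastic and 6.84 on 32 kPa in its first intron, Ccnd3, a D-type cyclin, had 6.05 and 6.40, and Amotl2, a partner of YAP, had 6.07 and 6.15. Col5a1, a collagen V chain, had 5.29 on plastic and 5.32 on 32 kPa.

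The nearest start and the intron can belong to different genes, and by the gene of the intron 4 further list genes had a listed region. The region nearest to Pelo lies in the first intron of Itga1, the collagen-binding integrin subunit, and had 5.26 on 32 kPa against 3.96 on 0.2 kPa. The one nearest to Lpcat2 lies in the last intron of Mmp2, the gelatinase, and had 6.52 on 32 kPa against 5.48 on 0.2 kPa. The one nearest to Gm16104 lies in Nfic, a factor of the nuclear factor I family, and had 6.38 against 5.34. The one nearest to 9230112D13Rik lies in Ldb3, a LIM protein of the muscle Z-disc, and had 5.17 on 32 kPa against 4.02 on 0.2 kPa and 5.27 on plastic against 4.03 on 0.2 kPa. This count, chosen after their values were seen, was 9 of 144 genes on 32 kPa (6.25%), without Ptx3, and 4 of 144 on plastic (2.78%). Over all 3689 genes with such a region in an intron of theirs, it was 3.17% on 32 kPa and 2.68% on plastic. On 32 kPa the share of the list genes thus lay further above that of all genes than by the nearest start, which was not tested.

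Most genes with a promoter region had none listed, and this held for genes with a listed intronic region too. The gaps between the shares below were not tested. Of 117 genes with a listed intronic region on 32 kPa, 66 also had a promoter region in the table of plastic against 32 kPa, and in 8 of them (12.1%) a promoter region was listed too, against 8.76% of all 10964 genes with a promoter region. These were Scel, Ddr1, Anapc15, Snx33, Pon2, Edem1, Hdgf and Sqor. On plastic it was 5 of 62 genes (8.06%), against 7.43%: Tbc1d2b, Scel, Pon2, Atl3 and Rasa3. In 27 of the 66 genes on 32 kPa, and 31 of the 62 on plastic, the promoter was the more open of the pair. The intronic regions were taken because they were listed, and none of those was under 4.97 on 32 kPa or 4.96 on plastic. Promoters had no such filter, so this count is tilted toward the intron. At Scel the highest promoter region had 5.95 on 32 kPa beside 5.85 in the intron, and at the collagen receptor Ddr1 it had 5.63 beside 5.60.

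**Figure D4:**
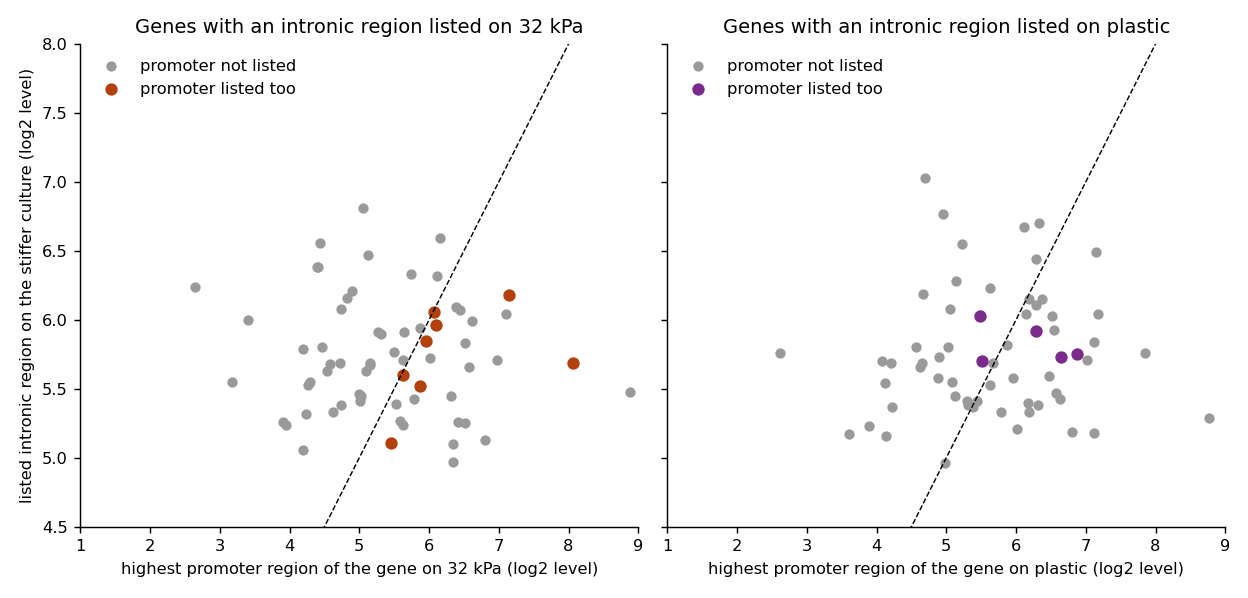
Each point is a gene with a listed intronic region: its level on the stiffer culture against that of the gene's highest promoter region there, both in log2 normalised reads, with a dashed line at equality. Coloured points are genes with any promoter region listed too, 8 of 66 for 32 kPa (left) and 5 of 62 for plastic (right).

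MicroRNA genes were the nearest start at 179 of the 4771 regions (3.75%), and 173 of those lay in an intron of another gene. At Mir3075 and Mir8093 the start used was the 5′ end of the annotated hairpin, which need not be a start of transcription. On 32 kPa 5 of these 179 were listed, or 2.79%, against 2.56% of all intronic regions near starts and 3.31% of all regions. On plastic 3 were listed, or 1.68%, against 2.18% and 3.3%. These shares rest on few regions, and the gaps were not tested. A mature sequence was on hand for the listed regions near Mir3075 and Mir8093, and none of these regions overlapped the hairpin. The sequences are shown, credited to RefSeq (GRCm38.p6), with the seed at bases 2 to 8 in capitals, since the seed sets which messages a microRNA can pair with.
mmu-miR-3075-3p: aUCCUUGGccuuccuaggugu
mmu-miR-8093: uUGGGGAGcagagcaugagug

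The seeds differ, so these microRNAs share no seed family. The region near Mir8093, in the eleventh intron of Fpgs, the enzyme that adds glutamates to folate, had 5.65 on plastic against 4.48 on 0.2 kPa.

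Between plastic and 32 kPa no intronic region near a start reached an FDR of 0.05 in the authors' deposited table, and nor did any of the 64217 regions, a share of 0%. Every FDR there was 1, from DiffBind per the submitters' processing notes. The median fold, plastic minus 32 kPa, was 0.05 for these regions and 0.05 for all regions, with quartiles of -0.20 and 0.33. At an unadjusted p under 0.05 were 25 of the 4771, or 0.524%, against 0.576% of all regions. Of these, 18 were higher on plastic and 7 higher on 32 kPa, against 0.382% and 0.195% of all regions in those directions. The 984 regions at 5 or more on 32 kPa had folds between -0.93 and 0.66.

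The wide folds were at regions with few reads. Col20a1, a minor collagen, had 4.29 on plastic against 1.76 on 32 kPa, with the lowest p of 0.0022 in the authors' deposited table. Med15, a Mediator subunit, had 3.96 on plastic against 2.03 on 32 kPa, and B4galt7, an enzyme that begins glycosaminoglycan chains, had 4.0 against 2.1. Hsbp1l1 had 2.73 on plastic against 4.37 on 32 kPa. Tacr2, the neurokinin A receptor, was the strongest of the 5 regions of lowest p, with 5.48 on plastic against 4.44 on 32 kPa and a p of 0.0169 in the authors' deposited table. It was also listed as higher on plastic than on 0.2 kPa, at 5.49 against 4.32.

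**Figure D5:**
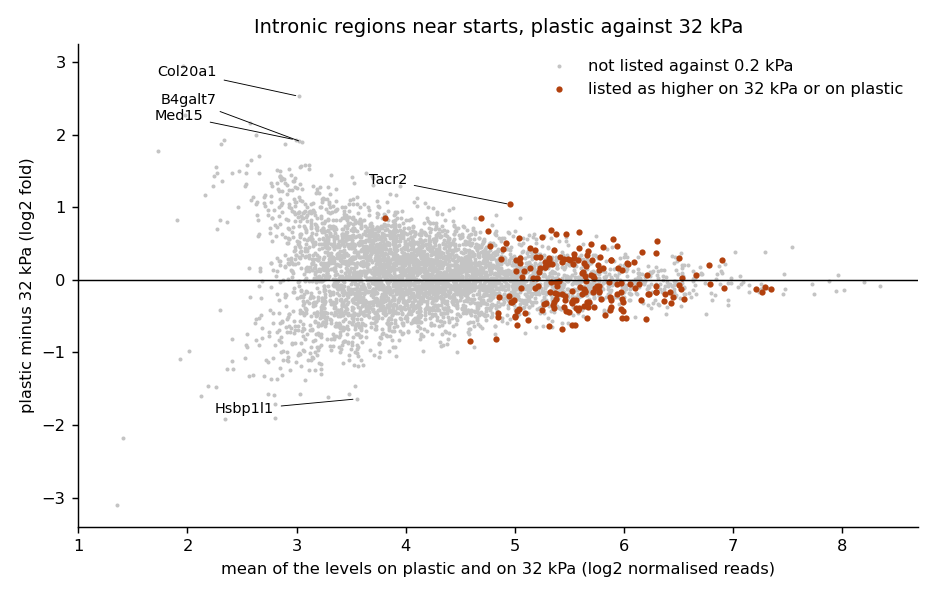
Fold between plastic and 32 kPa (plastic minus 32 kPa, log2) against the mean level of each of the 4771 intronic regions near starts. Named regions have the 5 lowest p-values; the fold narrows with level, between -0.93 and 0.66 for regions at 5 or more on 32 kPa.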

How the data were processed

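Omni-ATAC-seq libraries were placed in groups by their culture label. Tools named in the submitters' processing notes are BWA, Picard, MACS2 and DiffBind, without versions, with mm10 as the build. Read shifting, peak merging and library scaling are not given in the sources used here. Per the file headers, the deposited levels and folds are log2 values, a level being the mean over a culture's libraries of their normalised reads. The p-value and FDR of each region are the authors', as deposited. Gene names, introns and distances were used as deposited.

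In both tables with 0.2 kPa the sides are headed Control and Treat. At 643 intervals shared with the table that names its cultures, Control equalled 32 kPa, and at 653 it lay 0.01 to 0.02 above plastic, so Control was read as the stiffer culture. One repeated header row was dropped. Regions were matched between tables by an overlap of at least 1 bp. Shares at equal level weight bins of the level on the stiffer culture. Overlap and weighting were tested on simulated data. No test was added, because the tables hold no values per library, and precision rests on the authors' FDR.

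Regions named are the 10 largest folds and 5 lowest FDR values per comparison with 0.2 kPa, the 10 largest mean folds listed in both, genes with 2 or more listed, the 5 lowest p-values between plastic and 32 kPa, the 10 highest levels on 32 kPa, and listed regions of the 11 gene lists. Others were named after their values were seen. The regions and lists were chosen with earlier results of these data known. Python 3.11.15, pandas 2.3.3, numpy 2.4.6 and matplotlib 3.10.9 were used.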

Additional observations from a re-analysis of the deposited data

How the results depend on the processing

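The share of intronic regions near starts that were listed was most sensitive to what was counted. With an FDR of at most 0.01 it was 0.524% on 32 kPa and 0.524% on plastic, and among those that reached the lowest level of any listed region it was 11.9% on 32 kPa and 9.58% on plastic. Weighting promoters to the levels of the intronic regions near starts moved their listed share to 2.06% on 32 kPa and 2.09% on plastic. The other 22 values kept within 1.5 times, or within 0.1 for a median level: a limit of 5 kb (2.8% on 32 kPa, 2.62% on plastic), an overlap of 50% of both lengths, only introns of the nearest gene, only first introns, other FDR limits between plastic and 32 kPa, weighting by level of the other kinds of region, and the gene of the intron, which was chosen after seeing the data. The count of 0 called between plastic and 32 kPa could not move under any of its settings, given the FDR values there, so it shows no stability. By the gene of the intron the count on 32 kPa went from 6 to 9 genes, which is at the limit of 1.5 times. That compares counts only, and the share went from 4.48% to 6.25% of the list genes with a region. No paired analysis was possible because the tables hold 1 mean per culture, and for the same reason no library could be left out. Depth is unknown, and a region absent from both lists has no level on 0.2 kPa here. An unlisted region may have changed by less or the other way. It may also have changed by as much as a listed region and missed the FDR limit.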

Other observations

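Several genes held clusters of intronic regions near their starts, and 14 genes had 5 or more. Synpo, an actin-associated protein, had the most, with 7 regions between 4.23 and 6.76 on plastic and between 3.94 and 6.66 on 32 kPa. Gsn, the actin-severing protein gelsolin, had 6, between 3.19 and 5.66 on plastic and between 3.65 and 5.75 on 32 kPa. Sp110, an interferon-induced nuclear body protein, had 6, the strongest at 7.76 on plastic and 7.32 on 32 kPa. Related genes stand beside Sp110, and its levels are uncertain where reads map to more than one of them. No region of these 3 genes was listed. Plec, Schip1, Myo10 and Syne1 had 5 each, and of these Schip1 had 1 listed in each comparison and Myo10 had 1 on plastic.

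Some listed regions outside the rule for named genes were chosen after their values were seen. Limk2, a kinase that acts on cofilin, had 5.63 on 32 kPa against 4.29 on 0.2 kPa, and 5.37 on plastic against 4.26 on 0.2 kPa. Arhgef2, an exchange factor for RhoA, had 5.69 on 32 kPa against 4.47 on 0.2 kPa, and 5.54 on plastic against 4.48 on 0.2 kPa. Phactr1, an actin-binding regulator of protein phosphatase, had 5.55 on 32 kPa against 4.47 on 0.2 kPa, and 5.76 on plastic against 4.52 on 0.2 kPa. A region near Mir6979, in an intron of Diaph1, a formin that extends actin filaments, had 6.95 on 32 kPa against 5.91 on 0.2 kPa. FDR values of these regions lay between 0.00491 and 0.0496 in the authors' deposited tables. They were picked by eye from the 223 entries of both lists, some of which are the same region, and say nothing of actin genes as a group. Nr2f2, an orphan nuclear receptor, had one of the strongest listed regions, with 7.28 on 32 kPa against 6.26 on 0.2 kPa. Cry2, a repressor of the circadian clock, was listed in both comparisons at different regions, 9.03 kb from a start on 32 kPa and 5.99 kb from one on plastic.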
